A study of Mus musculus with 95 samples.

Results

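The CXC chemokines and Cx3cl1 of the kidney were followed in SNF1 mice, a lupus-prone F1 cross of SWR and NZB. A member was any probe set of the array whose only gene symbol in the annotation was Cxcl1, Cxcl2, Cxcl9, Cxcl10, Cxcl11, Cxcl12, Cxcl14, Cxcl16 or Cx3cl1. This gave 15 probe sets for 9 genes, out of 45037 probe sets tested and 17097 genes. All mice were female SNF1 mice, and the pristane groups were injected intraperitoneally with pristane, a hydrocarbon oil, at 9 weeks of age. Whole-kidney RNA of 95 mice was put on 95 Affymetrix HT MG-430 PM arrays. The age-matched untreated groups held 7 mice for week 0, 10 for week 2, 9 for week 4, 10 for each of weeks 8 and 12, and 5 for week 14. The pristane groups held 9 mice for week 2, 10 for week 4, 8 for each of weeks 8 and 12, and 9 for week 14. Each mouse gave 1 array, so no mouse was followed over time.

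Chemokines are small secreted proteins that draw leukocytes along a gradient through G protein-coupled receptors. Cxcl1 and Cxcl2 act on Cxcr2 and draw neutrophils. Cxcl9, Cxcl10 and Cxcl11 are induced by interferons and act on Cxcr3 of activated T cells and NK cells. The remaining members are made by many tissues at rest: Cxcl12 acts on Cxcr4 and Ackr3, Cxcl16 on Cxcr6 and Cx3cl1, the only CX3C chemokine, on Cx3cr1, while Cxcl14 is made by epithelia. In lupus nephritis the interferon-induced ligands are known for drawing T cells into the inflamed kidney.

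Values were log2 expression from the robust multi-array average (RMA), and a call means an adjusted p under 0.05 with limma over all 45037 probe sets. A gene was read from its brightest probe set unless another is named, and levels of different probe sets were not compared. Precision is limited by how many arrays a group has. Array medians lay between 4.22 and 4.57. No value was below 2.21, and 19.0% of all values sat at that floor. Tubule markers were high throughout, with a mean level over 4 of 6 listed genes of 9.80 to 10.43 in pristane mice of week 14 and 10.39 to 10.79 in their controls. Of these 4 genes, 1 was called lower with pristane at week 14 and 0 higher. Adrenal genes also varied from kidney to kidney: their mean level ran from 3.69 to 8.27 among untreated mice of week 8. As kidneys were measured whole, a change in the number of cells of a type and a change in RNA per cell cannot be told apart.

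The sequences before the start sites are shown for the letters through which NF-kB and interferon signals are known to act on these ligands. The 250 bases before the start site were taken from RefSeq on build GRCm38.p6, which had 7 of the 9 genes; Cxcl11 and Cxcl16 were not matched. Both strands were searched for the interferon-stimulated response element (ISRE) core, which is GAAA, any 2 bases and GAAA again, the gamma-activated site TTCNNNGAA and the NF-kB consensus. Of 32851 promoters of the same length, 2.98% held the ISRE core, 7.02% the gamma-activated site and 3.90% the NF-kB consensus. Capitals mark the matches in the 4 members that had any, read 5′ to 3′ on the strand of the gene:
Cxcl1: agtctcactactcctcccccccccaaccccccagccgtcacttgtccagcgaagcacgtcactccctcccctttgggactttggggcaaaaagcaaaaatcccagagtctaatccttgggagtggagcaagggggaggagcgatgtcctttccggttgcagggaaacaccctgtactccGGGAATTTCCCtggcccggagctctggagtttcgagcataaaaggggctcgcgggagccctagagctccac
Cxcl2: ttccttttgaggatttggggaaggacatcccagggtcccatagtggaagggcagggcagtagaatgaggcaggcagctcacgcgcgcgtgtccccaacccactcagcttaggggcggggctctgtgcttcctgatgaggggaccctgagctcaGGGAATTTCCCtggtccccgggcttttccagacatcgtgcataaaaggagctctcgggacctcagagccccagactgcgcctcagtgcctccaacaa
Cxcl10: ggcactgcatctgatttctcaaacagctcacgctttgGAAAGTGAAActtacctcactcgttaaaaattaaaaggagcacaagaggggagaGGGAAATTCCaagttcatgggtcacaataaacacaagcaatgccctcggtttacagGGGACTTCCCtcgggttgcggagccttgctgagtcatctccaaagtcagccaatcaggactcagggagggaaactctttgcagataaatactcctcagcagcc
Cxcl14: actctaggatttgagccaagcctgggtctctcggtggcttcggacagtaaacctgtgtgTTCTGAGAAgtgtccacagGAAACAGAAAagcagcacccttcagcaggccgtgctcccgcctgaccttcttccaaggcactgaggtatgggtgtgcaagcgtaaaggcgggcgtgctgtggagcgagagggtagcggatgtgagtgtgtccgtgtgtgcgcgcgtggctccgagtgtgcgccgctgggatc

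The Cxcl1 window lies at chr5:90890995-90891244 (plus strand) and that of Cxcl2 at chr5:90903649-90903898 (plus strand). In each, the matches on the plus and the minus strand overlap in 1 stretch of 11 bases with the same letters, GGGAATTTCCC. Cxcl10, at chr5:92348890-92349139 (minus strand), held 1 ISRE core and 2 NF-kB matches. Cxcl14, at chr13:56296552-56296801 (minus strand), held 1 ISRE core and no NF-kB match. It also held 1 stretch, TTCTGAGAA, that matches the gamma-activated site pattern on both strands. The whole Cxcl14 window lies inside the annotated gene, chr13:56288643-56296811, so it precedes the start site listed in the promoter table but is not upstream of the gene. No motif was matched in the windows of Cxcl9, Cxcl12 and Cx3cl1. A match is a string of letters and not a site shown to be used.

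**Figure D1:**
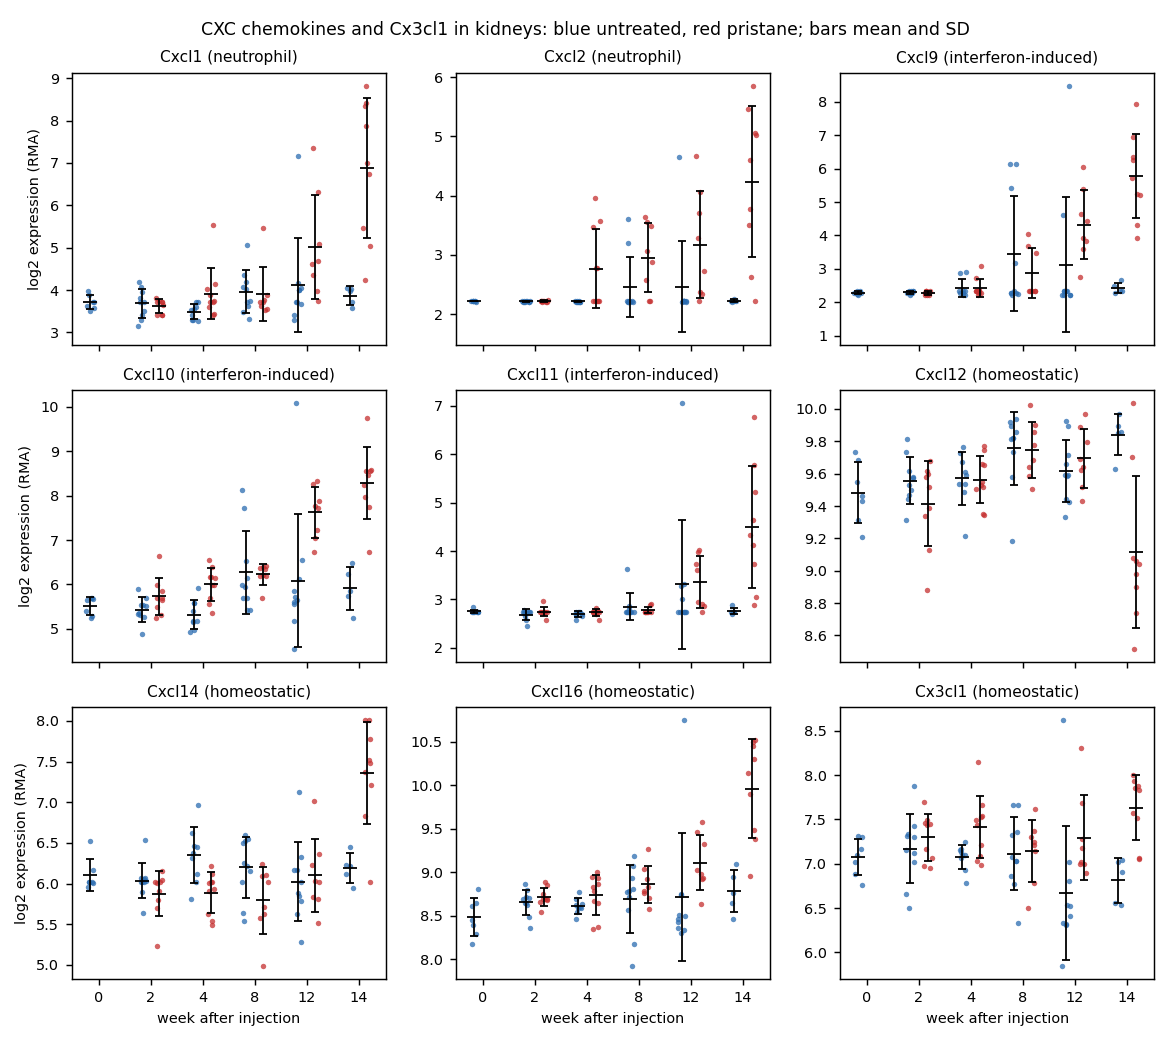
Log2 expression (RMA) of the 9 genes in each of 95 kidneys by week after injection, untreated in blue and pristane in red, with mean and SD in black. Each panel has its own axis. The mean is highest in pristane mice of week 14 for 8 genes and lowest there for Cxcl12, and untreated mouse 10 of week 12 lies far above its group for most genes.

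Neutrophil ligands were called higher with pristane at week 14 only. In untreated kidneys of week 14, Cxcl1 had values of 3.98, 3.57, 4.05, 3.72 and 4.04, against a lowest value of 4.23, a median of 7.01 and a highest value of 8.83 in 9 pristane kidneys. All 9 pristane kidneys lay above every untreated one. Cxcl1 was 3.01 ± 0.74 (SE) higher on the log2 scale (adjusted p = 0.0316). Of the probe sets tested, 4.57% were called higher and 3.73% lower in this comparison, and 7 of the 9 members were called higher and 0 lower. All 9 had an unadjusted p under 0.05, as did 23.7% of probe sets.

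Cxcl2 was at or near the floor in untreated kidneys of week 14, with values of 2.22, 2.21, 2.22, 2.26 and 2.22. In pristane kidneys the lowest value was 2.22, the median 4.60 and the highest 5.86. Of the 9 pristane kidneys 8 lay above all controls and mouse 8 lay among them. The difference of 2.01 ± 0.57 on the log2 scale (adjusted p = 0.0484) was measured from values next to the floor in all 5 controls and in pristane mouse 8, and no fold is given.

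Before week 14 neither neutrophil ligand was called. At week 2, Cxcl2 lay between 2.21 and 2.24 in all pristane kidneys. Single pristane kidneys left this level from week 4, where Cxcl2 reached 3.47, 3.96 and 3.57 in mice 4, 6 and 7, and all 9 controls lay between 2.21 and 2.22. Cxcl2 then differed by 0.55 ± 0.22 (p = 0.0222 without adjustment, limma; adjusted p = 0.885). Untreated kidneys left this level too at week 8, where Cxcl2 ran from 2.22 to 3.65 with pristane and from 2.21 to 3.61 without. Cxcl1 at week 8 ran from 3.54 to 5.46 with pristane and from 3.32 to 5.05 without. At week 12 Cxcl2 ran from 2.22 to 4.67 with pristane and from 2.21 to 4.65 without, where the highest untreated value was that of mouse 10. Cxcl1 at week 12 ran from 3.74 to 7.36 with pristane and from 3.29 to 7.17 without, where the 7.17 was again mouse 10 and the other 9 controls reached 4.16.

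The neutrophil markers S100a8 and S100a9 were called higher at weeks when these ligands were not. Of 8 measured markers of a list of 10, S100a9 was called at every week and S100a8 at weeks 4, 8 and 14, and the other 6 were not called at any week. At week 8 the count fell from 2 to 1 in 13 of 18 fits that omitted 1 mouse (without any untreated mouse but 9, or pristane mouse 2, 3, 6 or 7), and at week 2 it was 0 with the adrenal covariate. S100a8, a calcium-binding protein of neutrophils and monocytes, was 3.88 ± 0.53 higher at week 4 and 2.23 ± 0.42 higher at week 14. The mean level of the list was 2.59 to 4.91 in pristane kidneys and 2.51 to 2.70 in controls at week 4, and 2.97 to 4.67 against 2.62 to 2.92 at week 14. Csf3r stayed at the floor in all kidneys of both groups at week 4, and Elane in both groups at week 14. The part of neutrophil content in the values of Cxcl1 and Cxcl2 was not tested.

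Of the interferon-induced ligands, Cxcl9 gave the largest difference among the members at week 14, and Cxcl10 and Cxcl9 had the lowest adjusted p-values. Cxcl11 had the highest and was not called. Cxcl9 was at 2.34, 2.67, 2.33, 2.47 and 2.29 in untreated kidneys. In pristane kidneys it had a lowest value of 3.94, a median of 5.73 and a highest value of 7.93, so that the groups did not overlap. Cxcl9 was 3.35 ± 0.56 higher on the log2 scale (adjusted p = 0.00884). No fold is given, since its low values lay near the floor and 14 of 51 untreated kidneys shared the same one, 2.33.

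Cxcl10 was measured at 5.86, 6.48, 5.73, 6.25 and 5.24 in untreated kidneys of week 14 and at 6.74, 8.46 and 9.74 (lowest, median and highest) in pristane kidneys. Again all 9 pristane kidneys lay above the controls. The difference was 2.38 ± 0.39 (5.20-fold; adjusted p = 0.00813).

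Cxcl11 gave 2.69, 2.74, 2.74, 2.74 and 2.88 in the same controls and a lowest value of 2.89, a median of 4.33 and a highest value of 6.77 with pristane. Its groups did not overlap either, but the difference of 1.74 ± 0.57 missed the threshold (95% interval 0.52 to 2.97; adjusted p = 0.0751). The most common value of Cxcl11, 2.74, was taken by 25 of 51 untreated kidneys, so its probe set hardly varied where the gene was low. A further Cxcl11 probe set, at the floor or near it in most kidneys, differed by 0.12 ± 0.16 (adjusted p = 0.754).

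At earlier weeks Cxcl10 had the smallest unadjusted p-value among the members at weeks 2, 4 and 12. It differed by 0.30 ± 0.16 at week 2 (adjusted p = 0.759) and by 0.68 ± 0.16 at week 4 (p = 0.000479 without adjustment, limma; adjusted p = 0.151), where 7 of 10 pristane kidneys lay above all 9 controls; without pristane mouse 1 it was called at week 4 (0.75, adjusted p = 0.0452). At week 8 the pristane kidneys lay within 5.71 and 6.42, and the untreated ones between 5.42 and 8.12. Cxcl10 at week 12 ran from 6.74 to 8.33 with pristane, and its difference of 1.53 ± 0.55 was not called (adjusted p = 0.684).

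No member was called at weeks 2, 4, 8 and 12, with 0, 4, 1 and 1 of 9 under an unadjusted p of 0.05 (limma), beside 7.15%, 4.88%, 3.63% and 6.17% of all probe sets. Calls were rare across the array at these weeks: 0.231%, 0.124%, 0.0866% and 0.0244% of probe sets were called higher, and 0.0178%, 0.0133%, 0% and 0% lower. Over weeks 2, 4, 8, 12 and 14 in this order, the median difference of the 9 members was 0.00, 0.13, -0.04, 0.62 and 1.74, while the median over all probe sets was 0.00 at each of these weeks. By class, the medians at week 12 were 0.81 for the neutrophil ligands, 1.20 for the interferon-induced and 0.24 for the tissue ligands. At week 14 they were 2.51, 2.38 and 0.99. These classes hold 2, 3 and 4 genes, and no test was made between them.

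**Figure D2:**
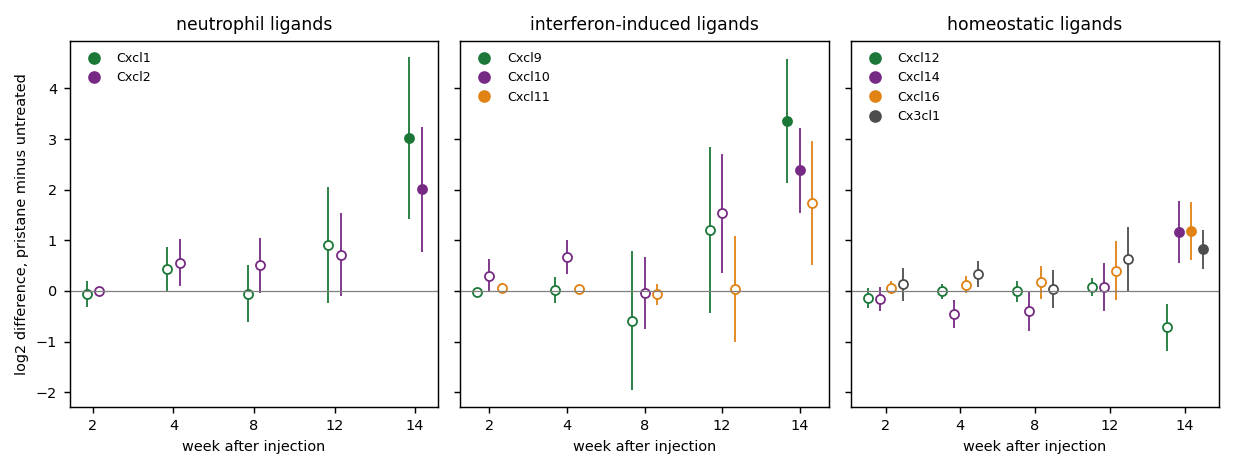
Log2 difference between pristane and untreated kidneys at each week, with the 95% interval of the limma fit. Filled points passed an adjusted p under 0.05, which only week 14 shows, for 7 of 9 genes; the intervals of the interferon-induced ligands at week 12 are wide.

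Among untreated kidneys a few had high interferon-induced ligands. Mouse 10 of week 12 had the highest value of all 95 kidneys for Cxcl9 (8.49), Cxcl10 (10.10), Cxcl11 (7.07), Cxcl16 (10.76) and Cx3cl1 (8.62). Its Cxcl1 was 7.17 and its Cxcl2 4.65, while Cxcl12 at 9.93 was next to the 9.90 of mouse 7. The T and NK cell markers of this mouse had a mean level of 5.40, above all other untreated kidneys, and its macrophage markers one of 7.69. Its neutrophil markers had a mean level of 2.98, within the range of untreated kidneys, whose highest value was 3.02 at week 0. Whether these cells account for its chemokine levels was not tested.

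Without this untreated mouse, 3 members were called higher at week 12, where 1.33% of probe sets were then called higher and 0.0266% lower. Cxcl10 was then 1.98 higher (adjusted p = 0.00155), and all 8 pristane kidneys lay above the 9 remaining controls. Cxcl16 was 0.62 higher (adjusted p = 0.0135) and Cx3cl1 0.84 higher (adjusted p = 0.0449). Cxcl9 differed by 1.80 and just missed the threshold (adjusted p = 0.0566), and Cxcl11 differed by 0.46 (adjusted p = 0.425). The neutrophil ligands Cxcl1 and Cxcl2 differed by 1.24 (adjusted p = 0.222) and 0.95 (adjusted p = 0.168), with 6 and 7 of 8 pristane kidneys above all 9 remaining controls.

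At week 8, untreated mice 1, 3 and 9 had Cxcl9 at 6.15, 6.15 and 5.41, and the other 7 lay at 3.18 or lower. Cxcl10 in these 3 mice was 6.53, 7.72 and 8.12. Their Cxcl1 was 4.20, 4.07 and 5.05, so that mouse 9 was the highest and mice 1 and 3 lay within the other 7 (3.32 to 4.37). Pristane kidneys of that week reached 4.06 for Cxcl9, and the difference of -0.59 ± 0.65 was not called (95% interval -1.96 to 0.78). The T and NK cell markers of mice 1, 3 and 9 had mean levels of 4.01, 3.99 and 3.89, the 3 highest of the group. Macrophage markers were highest in mice 3 and 9 (6.46 and 5.92), with mouse 1 at 5.08 just below mouse 7 at 5.09. The part of these cells in the chemokine values was not tested.

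**Figure D3:**
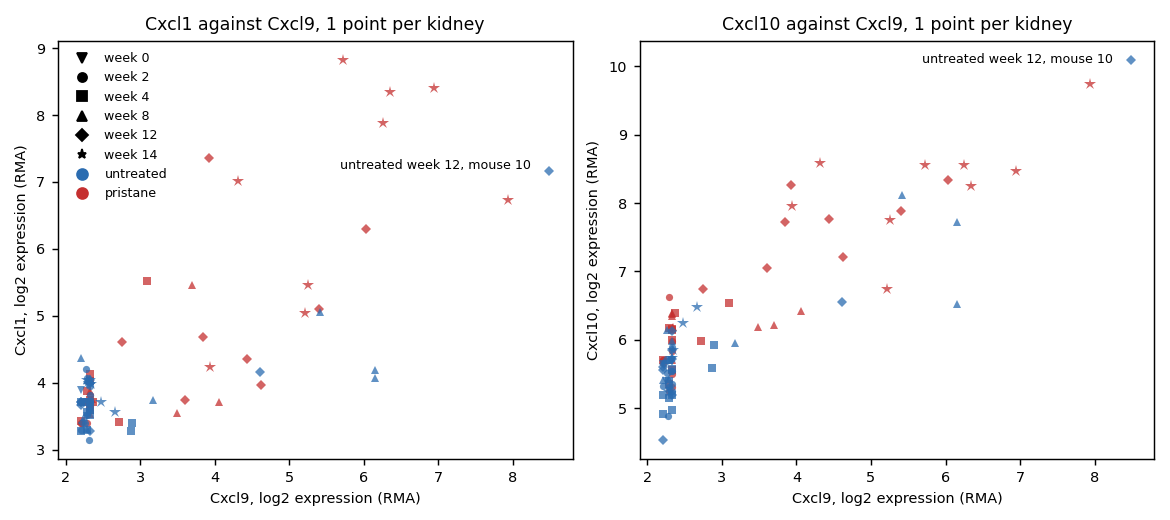
Each point is 1 of 95 kidneys, with Cxcl9 on the x axis and Cxcl1 (left) or Cxcl10 (right) on the y axis, all in log2 expression; colour gives the treatment and shape the week. Untreated mice 1 and 3 of week 8 lie high on Cxcl9 (6.15) with Cxcl1 at 4.20 and 4.07, and untreated mouse 10 of week 12 is at the upper right of the Cxcl10 panel.

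The tissue ligands split. Cxcl16, a transmembrane chemokine that can be shed, was at 8.47, 9.09, 8.95, 8.65 and 8.76 in untreated kidneys of week 14 and at 8.96, 10.14 and 10.53 (lowest, median and highest) with pristane. Only pristane mouse 2 lay within the controls. It rose by 1.18 ± 0.27 (2.27-fold; adjusted p = 0.0246), and its second probe set rose by 0.99 ± 0.21 (adjusted p = 0.0201).

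Cx3cl1, which is also anchored in the membrane, had values of 6.90, 7.05, 7.02, 6.55 and 6.53 without pristane and of 7.05, 7.83 and 8.00 (lowest, median and highest) with it. The groups touched at 7.05 without crossing. The difference was 0.82 ± 0.18 (adjusted p = 0.0231), the smallest among the called members. A second Cx3cl1 probe set differed by 0.27 ± 0.11 and was not called (adjusted p = 0.1545).

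Cxcl14 differed by -0.46 ± 0.13 at week 4 (p = 0.00319 without adjustment, limma; adjusted p = 0.425) and by -0.41 ± 0.18 at week 8 (p = 0.0402 without adjustment), and neither was called. Its second probe set differed by -0.31 ± 0.21 and -0.03 ± 0.20 at these weeks and by -0.35 ± 0.11 at week 2 (p = 0.00385 without adjustment; adjusted p = 0.334). At week 14 the controls gave 6.45, 6.23, 6.12, 6.22 and 5.95, and the pristane kidneys 6.02, 7.48 and 8.02 (lowest, median and highest). Mouse 2 with pristane lay within the controls and the other 8 above them. Cxcl14 rose by 1.17 ± 0.29 (adjusted p = 0.0317), and its second probe set by 1.47 ± 0.39 (adjusted p = 0.0405).

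Cxcl12 was the only member with lower values after pristane at week 14. Untreated kidneys gave 9.86, 9.63, 9.89, 9.97 and 9.85, and 7 of 9 pristane kidneys lay below all of them. The pristane values were 9.70, 10.04, 9.04, 8.90, 9.08, 9.06, 8.98, 8.74 and 8.51 for mice 1 to 9, so that mouse 2 lay above all controls and mouse 1 between the lowest and the other 4. The difference of -0.72 ± 0.21 just missed the threshold (95% interval -1.19 to -0.26; adjusted p = 0.0559). A second Cxcl12 probe set was called lower (-1.03 ± 0.27, adjusted p = 0.0413). The third probe set, with untreated values of 3.48 to 3.77, differed by -0.07 ± 0.10 (adjusted p = 0.762). Cxcl12 was called lower when pristane mouse 1 or mouse 2 was left out (lowest adjusted p = 0.00558), and likewise after median centring, quantile normalization, the filter on low probe sets, a single fit of all groups and on the mean of its probe sets. It was not called with the trended and robust fit, the adrenal covariate or its dimmest probe set. Podocyte markers (3 of 4 measured) had mean levels of 8.40 and 8.43 in pristane mice 1 and 2, of 7.45 to 7.98 in the other 7 and of 7.94 to 8.38 in controls, with 0 of 3 called (limma; 1, Nphs1, under an unadjusted p of 0.05). Endothelial markers had mean levels of 7.87 and 8.00 in mice 1 and 2, of 7.26 to 8.02 in the other 7 and of 7.60 to 7.95 in controls, and 1 of 5, Kdr, was called lower. Tubule markers had mean levels of 10.43 and 10.39 in mice 1 and 2 and of 9.80 to 10.33 in the other 7. Controls gave 10.39 to 10.79, and 1 of 4 measured tubule markers was called lower. The part of these cell types in the Cxcl12 values was not tested.

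**Figure D4:**
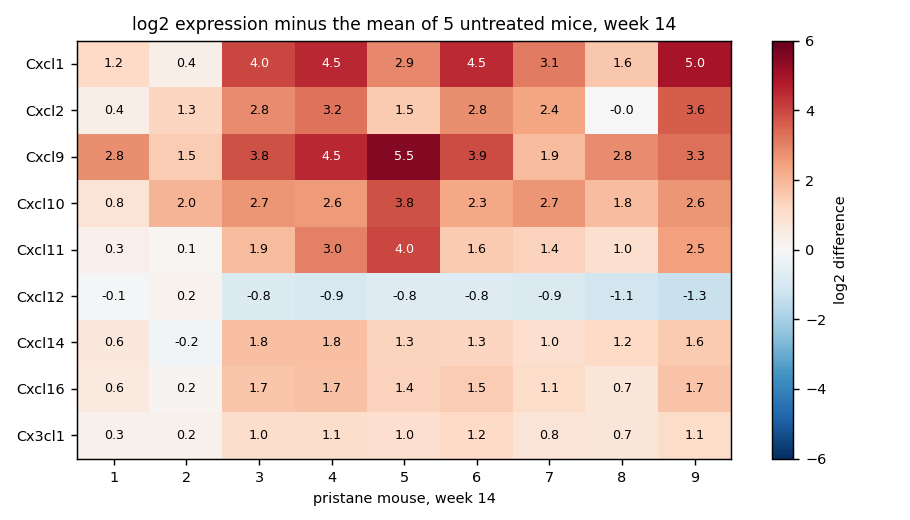
Log2 expression of the 9 genes in the 9 pristane kidneys of week 14, each minus the mean of the 5 untreated kidneys of that week; red is higher and blue lower. Mouse 2 has the lowest value for 6 of the 8 genes other than Cxcl12, and mouse 5 has the highest Cxcl9, Cxcl10 and Cxcl11.

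The pristane kidneys of week 14 differed among themselves. Apart from Cxcl12, mouse 2 had the lowest value for 6 of 8 genes, and mouse 1 for Cxcl10 and mouse 8 for Cxcl2. Mouse 5 had the highest Cxcl9, Cxcl10 and Cxcl11, and mouse 9 the highest Cxcl1 and Cxcl2. Macrophage markers in mice 1 and 2 had mean levels of 6.05 and 6.44, and 7.36 to 7.79 in the other 7, with 4.79 to 5.18 in untreated kidneys. For the T and NK cell markers the range was 4.00 to 5.83 with pristane and 3.57 to 3.92 without. Of 7 macrophage markers measured 5 were called higher, among them Adgre1 (3.18 ± 0.41), and 3 of 9 T and NK cell markers, with Cd3g at 3.34 ± 0.55 and Ncr1 at the floor in all kidneys of both groups. The T and NK cell count ran from 2, without any 1 of controls 1, 2, 4 and 5 or pristane mouse 3, 4, 5, 6, 7 or 9, to 4 and 5 when pristane mouse 1 or 2, in this order, was left out. The adrenal list had a mean level of up to 6.79 in the pristane kidneys of mice 4, 5 and 6 and of at most 3.92 in controls. With this adrenal signal as a covariate in limma only Cxcl9 (2.78, adjusted p = 0.0123) and Cxcl10 (2.17, adjusted p = 0.0261) were called, from 3.35 and 2.38 without it. The differences of the other members were smaller too, with 2.62 for Cxcl1, 1.79 for Cxcl2, 1.02 for Cxcl14, 1.02 for Cxcl16 and 0.72 for Cx3cl1. Cxcl11 went from 1.74 to 1.22 and Cxcl12 from -0.72 to -0.67. The share of all probe sets called with the covariate is not given here, so the lost calls are not read as particular to the members. How far these cells carry the chemokine differences was not tested.

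Cxcl9 and Cxcl10 were called whichever of the 14 mice of week 14 was left out, with a highest adjusted p of 0.0315 and 0.0308. Cxcl1, Cxcl2 and Cxcl14 were not called without any 1 of the 5 controls or without pristane mouse 3, 4, 5, 6, 7 or 9, with a highest adjusted p of 0.0815, 0.108 and 0.0794. Cxcl16 was not called without any 1 control (up to 0.0689), and Cx3cl1 without control 3, 4 or 5 (up to 0.0693). Their differences stayed close, with 2.77 to 3.34 for Cxcl1 and 1.10 to 1.31 for Cxcl16. Over all probe sets the number called higher fell from 2059 to between 709 and 1215 when 1 control was left out.

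Members varied together within groups. As a description over the 95 kidneys with group means removed, Cxcl9 and Cxcl10 had a Pearson r of 0.782 and a Spearman rho of 0.630, with r = 0.625 without the 2 kidneys farthest on Cxcl9. For Cxcl1 and Cxcl2 the values were 0.741, 0.561 and 0.701, and for Cxcl16 and Cx3cl1 0.766, 0.658 and 0.650. By r, some pairs across classes were about as close, such as Cxcl11 and Cxcl16 (r = 0.751, rho = 0.448) and Cxcl1 and Cxcl16 (r = 0.719, rho = 0.468). Their rho was lower than in the pairs above. Without the 2 kidneys farthest on the first gene, r was 0.645 and 0.582. Outside Cxcl12, the lowest pair by r was Cxcl2 and Cxcl9 (r = 0.383, rho = 0.349), and by rho Cxcl11 and Cx3cl1 (r = 0.575, rho = 0.252). Cxcl12 gave r between -0.21 and 0.09 with the other 8. Within the 9 pristane kidneys of week 14 its r was negative with all 8, from -0.84 with Cxcl14 to -0.42 with Cxcl9, and in the other 86 kidneys it was positive with all 8, from 0.15 to 0.39. All pairs come from the same arrays.

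Among genes whose 11 group means span at least 0.5, Lair1 (an inhibitory collagen receptor of leukocytes), Evi2a and Sting1 (an adaptor of cytosolic DNA sensing) were most like Cxcl1, with r of 0.996, 0.995 and 0.995 over 11 group means. Cxcl2 was closest to Alox5ap, Ccl2 and Ccl8 (0.989, 0.983 and 0.983), where Ccl2 and Ccl8 are chemokines for monocytes. For Cxcl9 they were BC023105, Cd300a and Gbp8 (0.991, 0.983 and 0.982), for Cxcl10 Adgre1, Fam111a and Fcgr4 (0.983, 0.982 and 0.982), and for Cxcl11 Havcr2, Clec4b1 and Klra17 (0.991, 0.988 and 0.988). Adgre1 is a surface antigen of macrophages and Fcgr4 an Fc receptor of myeloid cells. Cxcl16 came closest to S100a4, Pltp and Cnp (0.992, 0.991 and 0.990). The likeness was weaker for Cxcl12 with F5 (coagulation factor V), Ugt2b34 and Npr3 (0.943, 0.941 and 0.940), for Cxcl14 with Syne2, Sult5a1 and Zfp53 (0.956, 0.953 and 0.951) and for Cx3cl1 with Arf2, Psap and Trim12c (0.939, 0.939 and 0.938). With 11 points from the same mice and 6461 candidate genes, these are the top of a long list.

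Over the 11 groups, pristane mice of week 14 had the highest mean for all members but Cxcl12, for which they had the lowest. For Cxcl1 (6.88 ± 1.65, SD, n = 9), Cxcl9 (5.77 ± 1.26), Cxcl11 (4.50 ± 1.26), Cxcl14 (7.36 ± 0.63) and Cxcl16 (9.96 ± 0.57), the gap to the next group was larger than the pooled SD of both. That next group was pristane week 12 for Cxcl1 (5.01 ± 1.23, n = 8), Cxcl9 (4.33 ± 1.04), Cxcl11 (3.35 ± 0.54) and Cxcl16 (9.11 ± 0.32), and untreated week 4 for Cxcl14 (6.35 ± 0.34, n = 9). The gap was within the pooled SD for Cxcl2 (4.24 ± 1.27 against 3.17 ± 0.91), Cxcl10 (8.29 ± 0.80 against 7.62 ± 0.57), and Cx3cl1 (7.63 ± 0.36 against 7.41 ± 0.35 at week 4). For Cxcl10, the week 12 pristane mean lay in turn more than the pooled SD above the next group, untreated week 8 (6.27 ± 0.93, n = 10).

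The pristane effect of week 14 was then compared with that of other weeks by interaction contrasts. Against week 2, 7 of 9 members had a larger effect at week 14, where 5.77% of probe sets were called higher and 6.13% lower. All 9 had an unadjusted p under 0.05, beside 23.2% of probe sets. Cxcl9 (3.36 ± 0.48, adjusted p = 6.16e-05), Cxcl1 (3.08 ± 0.64, adjusted p = 0.00246), Cxcl10 (2.08 ± 0.38, adjusted p = 0.00086) and Cxcl11 (1.68 ± 0.48, adjusted p = 0.0198) were among them. Cx3cl1 (0.69, adjusted p = 0.0561) and Cxcl12 (-0.58, adjusted p = 0.0766) missed the threshold, while the second probe sets of both were called, at 0.35 (adjusted p = 0.0496) and -0.96 (adjusted p = 0.0119). Against week 12, 0 of 9 were called with limma, as were 0% of all probe sets, with 5 of 9 members and 15.8% of probe sets under an unadjusted p of 0.05. Cxcl1 had an effect 2.11 ± 0.90 larger than at week 12 and Cxcl10 one 0.85 ± 0.73 larger, with adjusted p-values of 0.233 and 0.637. Without untreated mouse 10 of week 12 these were 1.77 and 0.40. The smallest adjusted p was that of Cxcl12 (-0.80 ± 0.21, 0.0725).

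Untreated kidneys of week 14 were also compared with those of week 0, where age and week of collection cannot be told apart. Cxcl12 was the 1 member called, at 0.36 ± 0.10 higher (limma, adjusted p = 0.0333), where 8.78% of probe sets were called higher and 4.52% lower. Here 3 of 9 members and 27.9% of probe sets had an unadjusted p under 0.05. This call was lost in 7 of 12 fits that omitted 1 mouse (untreated mice 1, 5 and 6 of week 0, and mice 1, 3, 4 and 5 of week 14; highest adjusted p = 0.0897). Median centring called Cxcl2, Cxcl9, Cxcl11, Cxcl12 and Cxcl16 higher. Before centring, Cxcl2, next to the floor in both groups, differed by 0.0067 and Cxcl11 by 0.0025. These calls are therefore not read as a change in expression of the 2 genes. The share of all probe sets called after centring is not given here. Quantile normalization called Cxcl9 and Cxcl11 higher and Cx3cl1 lower, and not Cxcl12. The adrenal covariate left 0 calls, and the mean over probe sets called Cxcl14 in place of Cxcl12. Its other probe sets differed by -0.08 and -0.18 and were not called, so the direction is that of 1 probe set. The second probe set of Cxcl14 rose by 0.77 ± 0.19 (adjusted p = 0.0222), while the first differed by 0.09 ± 0.11. Differences of the neutrophil and interferon-induced ligands lay between 0.00 and 0.39 (adjusted p = 0.156 or above). Of 7 macrophage markers measured, 3 were called higher at week 14, among them Cd68 (1.29 ± 0.28) and Lyz2 (1.01 ± 0.13), and 4 were not called. In the list of NF-kB regulators and cytokines 3 of 11 measured genes were called higher, among them Il1b (1.23 ± 0.14, limma, adjusted p = 0.000778). Of 6 receptors measured, 1 was called: Cx3cr1 was 0.47 lower (limma, adjusted p = 0.0486).

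**Figure D5:**
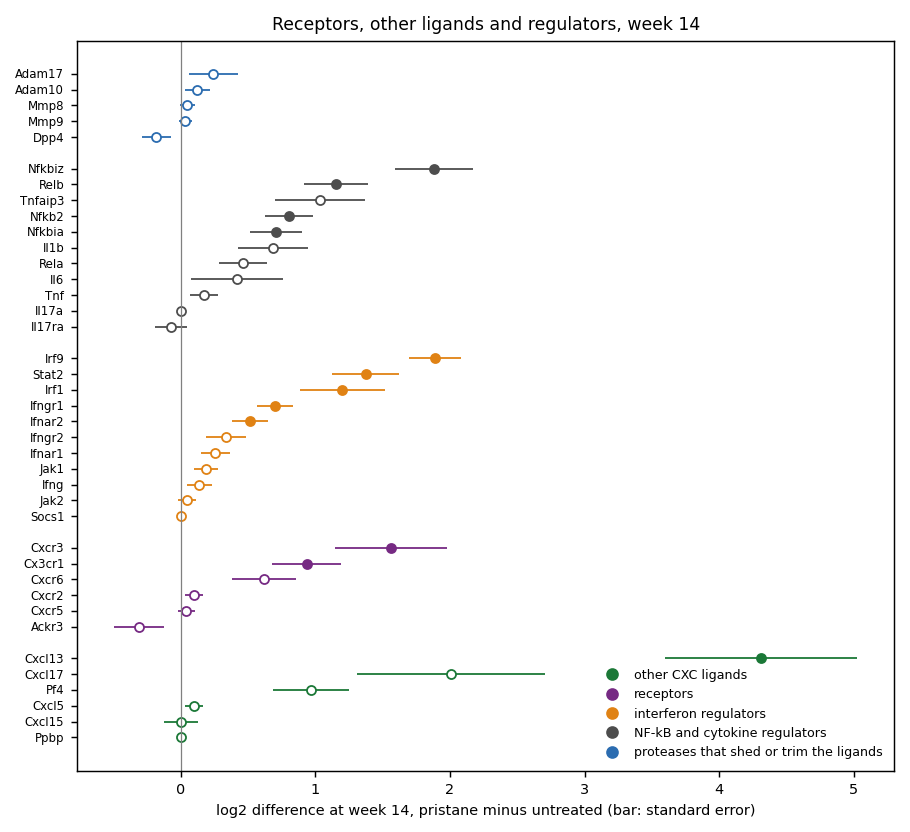
Log2 difference at week 14 between pristane and untreated kidneys for measured genes of 5 lists, with the standard error; filled points passed an adjusted p under 0.05. Cxcl13 is the largest at 4.31, the called regulators of interferon signalling and NF-kB lie between 0.52 and 1.89, and none of the 5 proteases is filled.

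Of 9 listed receptors, 6 were measured and 2 were called higher at week 14. Cxcr3, the receptor of Cxcl9, Cxcl10 and Cxcl11, was 1.56 ± 0.41 higher (adjusted p = 0.0401), and Cx3cr1, the receptor of Cx3cl1, was 0.94 ± 0.26 higher (adjusted p = 0.0452). Cxcr6, the receptor of Cxcl16, differed by 0.62 ± 0.24 (adjusted p = 0.124), Cxcr2 by 0.10 ± 0.07 and Ackr3 by -0.31 ± 0.18. No receptor was called at an earlier week. Both calls were lost without any 1 of the controls, without pristane mouse 3, 4, 5, 6, 8 or 9 and with the adrenal covariate, and 1 of them without pristane mouse 7. Cxcr1, Cxcr4 and Ackr1 were not analysed here.

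Of 6 other CXC ligands measured out of 7, Cxcl13 was called. This ligand of Cxcr5, which draws B cells, was 1.60 ± 0.29 higher at week 4 (adjusted p = 0.0376) and 4.31 ± 0.71 higher at week 14 (adjusted p = 0.00836). At week 4 the list kept a call in 3 of 19 fits that omitted 1 mouse (untreated mouse 1, pristane mouse 1 or pristane mouse 9). At week 14 its count was 3 when pristane mouse 1 or 2 was left out and 2 for pristane mouse 9. Cxcl17 differed by 2.01 ± 0.70 at week 14 (adjusted p = 0.0928) and Pf4 by 0.97 ± 0.28 (adjusted p = 0.0546).

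Of the interferon regulators, 5 of 11 measured out of 12 were called higher at week 14 and 0 lower. Irf9, a transcription factor of interferon signalling, was the earliest: 1.15 ± 0.14 at week 2 (adjusted p = 0.000361), 1.03 ± 0.17 at week 4 (adjusted p = 0.0195) and 1.89 ± 0.19 at week 14 (adjusted p = 0.0011). Stat2 (1.37 ± 0.25), Irf1 (1.20 ± 0.32) and the interferon gamma receptor chain Ifngr1 (0.70 ± 0.13) were called at week 14 too. Ifng itself differed by 0.14 at week 14 and was not called. At week 4 no gene of the list was called without control 3, 4 or 8. At week 14 the count ran from 3, without any 1 control or pristane mouse 3, 4, 6 or 9, to 6 without pristane mouse 1, and it was 3 with the adrenal covariate.

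NF-kB regulators and cytokines had 4 of 11 measured genes called higher at week 14, out of 12 listed. They were Nfkbiz (1.88 ± 0.29), Relb (1.16 ± 0.24), Nfkb2 (0.80 ± 0.18) and Nfkbia (0.71 ± 0.19), of which Nfkbia and Nfkbiz code for IkB proteins. The count was 1 without control 2 or 3, 2 without another control, 1 with the adrenal covariate and 5 without pristane mouse 1 or 2. The cytokines Tnf, Il1b, Il6 and Il17a were not called in pristane against untreated kidneys at any week. Il17a was at the floor in all kidneys and Il6 in all but some of pristane weeks 12 and 14, so that a difference could not be seen there. Proteases that shed or trim chemokines (Adam10, Adam17, Dpp4, Mmp8 and Mmp9) gave 0 of 5 calls at each week (limma), with differences of -0.18 to 0.24 at week 14. Unadjusted p-values under 0.05 were those of Mmp9 at weeks 4 and 8 and of Dpp4 at week 12. Median differences at week 14 were 0.53 for the other ligands, 0.36 for receptors, 0.33 for interferon regulators, 0.68 for the NF-kB list and 0.05 for the proteases, beside 0.00 for all probe sets.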

How the data were processed

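Kidney RNA was extracted with Trizol, amplified and labelled with NuGEN Ovation kits and hybridised to Affymetrix HT MG-430 PM arrays. Per the labels the authors used RMA and Partek, and the deposited values are log2 expression with 1 column per kidney. The authors' genome build is not given in the sources used here. RMA compresses low signals, so differences near the floor are understated.

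Of 45141 probe sets, 104 controls were left out. Genes were named from the array annotation: 28898 probe sets had 1 symbol, 551 several and 15588 none, and the latter groups named no gene. Each gene was represented by its brightest probe set on average, with the rest beside it. No 2 arrays held the same values (highest correlation 0.998), and each array was taken as 1 mouse.

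Tests used limma 3.58.1 (lmFit and eBayes, R 4.3.3) on the pristane and untreated mice of a week alone, with Benjamini-Hochberg adjustment over 45037 probe sets and a call at an adjusted p under 0.05. Interaction contrasts compared the effect of week 14 with that of weeks 12 and 2. The fit was also run on simulated, normally distributed values for weeks 2 and 14, with changes placed only in probe sets above the 40th percentile. Its outcome is not given here, and changes in genes near the floor were not simulated. Named genes were the members, up to 4 called genes per list with the largest change, and the 3 genes most like each member; marker genes beyond 4 and uncalled list genes fall outside it, picked with their values in view. The members, lists and motifs were chosen with earlier results of these data known. Alternatives were median centring, quantile normalization, a filter at the 40th percentile, all groups in a single fit, a trended and robust fit, the replicate number as a block, other summaries of probe sets, the adrenal signal as a covariate and leaving out each mouse. List counts without single mice and week 12 overlaps without untreated mouse 10 were added after seeing the data. A protein sequence comparison was not made.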

Additional observations from a re-analysis of the deposited data

Results flagged for a closer look

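Untreated mouse 10 of week 12 lay apart from the other 9 controls for 7 members: Cxcl9 8.49, Cxcl10 10.10, Cxcl11 7.07, Cxcl1 7.17, Cxcl2 4.65, Cxcl16 10.76 and Cx3cl1 8.62. The gap to the next control was 3.87 for Cxcl9, 3.54 for Cxcl10 and 2.43 for Cxcl2. Among 99 groups of values checked, 24 had a kidney at one end that stood apart by Dixon's criterion, and 10 of these had a gap over 0.5. The criterion is set to flag about 1 of 20 groups of independent, normally distributed values. Many Cxcl2 and Cxcl11 values were equal, and 7 flags came from the same mouse, so the 24 cannot be set against that rate.

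Other kidneys above their group were pristane mouse 4 of week 4 for Cxcl1 (5.53), pristane mouse 4 of week 8 for Cxcl1 (5.46) and untreated mouse 9 of week 8 for Cxcl11 (3.64). The remaining gaps were below 0.5. They were, for Cxcl10, pristane mouse 2 of week 8 (5.71, lowest). For Cxcl12 they were the lowest untreated kidneys of week 4 (9.21) and week 8 (9.18). For Cxcl14 they were the highest untreated kidneys of week 0 (6.53) and week 2 (6.54) and the lowest pristane kidney of week 2 (5.23).

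For Cxcl11, whose values lay mostly at 2.74, the kidneys apart were untreated week 0 (2.83), pristane week 2 (2.97), untreated week 4 (2.57, lowest), pristane week 4 (2.57, lowest) and untreated week 14 (2.88). For Cxcl2 at the floor they were untreated week 0 (2.21, lowest), pristane week 2 (2.24) and untreated week 14 (2.26).

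The pristane effect at week 14 was larger than at week 2, by the interaction contrast, for Cxcl9 (3.36), Cxcl1 (3.08), Cxcl10 (2.08), Cxcl2 (2.01), Cxcl11 (1.68), Cxcl14 (1.33) and Cxcl16 (1.12). All 7 were called whichever of the 33 mice was left out.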

How the results depend on the processing

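Over the single members, 2109 alternative values were computed. Of these, 1985 kept their side of the threshold, among them 69 with the opposite sign and no call in either fit. A further 54 gained a call, 69 lost it and 1 reversed. The reversed value was that of Cxcl12 on its dimmest probe set, untreated week 14 against week 0 (-0.18). At week 12 the count of members called was 1 in a single fit of all groups. At week 14 it was 2 with the adrenal covariate. For week 14 against week 12 it was 1 after the filter and 7 in the single fit. For untreated kidneys of week 14 against week 0 it was 5 after median centring, 3 after quantile normalization (Cxcl12 not among them) and 0 with the adrenal covariate. The cause was not tested. Other settings kept the counts within 1.5 times, apart from the replicate block and leaving out 1 mouse, which are given below. The share of all probe sets called under these alternative settings is not given here, so the counts are not read as particular to the members.

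Leaving out 1 mouse gave counts of 0 at week 2, 0 to 1 at week 4 (Cxcl10, without pristane mouse 1), 0 at week 8, 0 to 3 at week 12 (3 without untreated mouse 10) and 2 to 9 at week 14 (lowest when control 3, 4 or 5 was left out, highest for pristane mouse 1 or 2). They were 0 to 2 for week 14 against 12, 7 to 9 for week 14 against 2 and 0 to 1 for untreated kidneys. Calls over all 45037 probe sets moved in these fits as well. At week 4 they ran from 26 to 102 higher and 1 to 5 lower. At week 12 they ran from 3 to 597 higher and 0 to 12 lower, and at week 14 from 709 to 3074 higher and 133 to 4212 lower.

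Replicate numbers were not taken as pairs, and pairing was not tested. Same-numbered kidneys correlated above 0.1 in 4 of 9 pairs at week 2 and 2 of 9 at week 4. The count was 3 of 8 at weeks 8 and 12 and 2 of 5 at week 14. Single correlations ran from -0.568 at week 12 to 0.532 at week 4. An untreated kidney was closest to the pristane kidney of its own number in 2, 1, 0, 1 and 1 cases at weeks 2, 4, 8, 12 and 14. With the replicate number as a block, the counts were 3 at week 12, 0 at week 14 and 4 for week 14 against week 2. The block leaves kidneys without a partner out of the estimate, which at week 12 takes out untreated mice 9 and 10, and at week 14 leaves 5 pairs. It changed no other count.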
